A study of Arabidopsis thaliana with 8 samples.

Results

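The 10 genes described here were measured as transcripts by poly(A) RNA-seq in whole rosettes of Arabidopsis thaliana. They are KIN1 (AT5G15960), KIN2 (AT5G15970), COR15A (AT2G42540), COR15B (AT2G42530), COR47 (AT1G20440), ERD10 (AT1G20450), RD29A (AT5G52310), RD29B (AT5G52300), RAB18 (AT5G66400) and LTI30 (AT3G50970), chosen by their locus identifiers. All 10 were found among the 36796 genes of the table and all 10 were among the 20214 genes tested. The wild type was the accession Col-0 and the mutant was the double mutant hta9 hta11 in the same accession, with 4 libraries each. Both mutated genes code for the histone variant H2A.Z, which sits near transcription start sites, and the series asks how a disturbed chromatin balance bears on transcript levels. Each library was a pool of 5 plants aged 17 days that had not bolted. The plants grew on soil under 16 h of light and 8 h of dark at 22 °C and were collected 6 h after the lights came on, and the labels name no cold, drought or hormone treatment beyond the cold that seeds received in the dark for 3 days at 4 °C. The labels do not name the mutant alleles. The sources speak of fewer replicates per genotype than the 4 that were labelled, and all 8 libraries were used.

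These genes are standard readouts of cold, drought and the hormone abscisic acid (ABA). In the cold, the CBF transcription factors bind a DNA element called the CRT or DRE, whose core is CCGAC, in front of such genes. When ABA rises, its receptors block PP2C phosphatases, SnRK2 kinases are set free, and ABF transcription factors bind the ABA-responsive element or ABRE, whose core is ACGTG. RD29A is known to answer to both routes and RD29B mainly to ABA. Most of the encoded proteins are small, hydrophilic and thought to protect membranes and proteins when cells lose water. COR47, ERD10, RAB18 and LTI30 are dehydrins, COR15A and COR15B protect chloroplast membranes, and KIN1 and KIN2 are short alanine-rich proteins.

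Of these genes, 8 lie as 4 tandem pairs, with no annotated gene between the neighbours in the RefSeq annotation of TAIR10.1. KIN1 (chromosome 5, 5209717 to 5210826) and KIN2 (5211719 to 5212743) are on the plus strand with 892 bases between them. RD29B (chromosome 5, 21237021 to 21239531) and RD29A (21240717 to 21243644) are on the plus strand, 1185 bases apart. COR15B (chromosome 2, 17708593 to 17710433) and COR15A (17710441 to 17712330) are on the minus strand with 7 bases between the annotated genes. COR47 (chromosome 1, 7084409 to 7086873) and ERD10 (7087903 to 7089606) are on the minus strand, 1029 bases apart. RAB18 (chromosome 5, 26518277 to 26519447) and LTI30 (chromosome 3, 18940643 to 18941611) have no tandem partner among the 10.

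The RD29 and KIN pairs each hold a gene that passed the test beside a neighbour that did not, so the 300 bases before their annotated gene starts are shown, read from TAIR10.1 in the direction of transcription. Capitals mark CCGAC or ACGTG on either strand, so GTCGG and CACGT are marked too.
RD29A, chr5:21240417-21240716, plus strand: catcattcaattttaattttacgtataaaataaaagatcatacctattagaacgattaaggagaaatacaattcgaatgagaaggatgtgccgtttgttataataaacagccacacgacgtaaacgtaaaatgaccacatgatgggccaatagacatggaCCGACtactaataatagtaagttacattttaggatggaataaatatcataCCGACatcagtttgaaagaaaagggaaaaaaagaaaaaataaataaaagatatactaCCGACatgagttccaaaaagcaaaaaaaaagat
RD29B, chr5:21236721-21237020, plus strand: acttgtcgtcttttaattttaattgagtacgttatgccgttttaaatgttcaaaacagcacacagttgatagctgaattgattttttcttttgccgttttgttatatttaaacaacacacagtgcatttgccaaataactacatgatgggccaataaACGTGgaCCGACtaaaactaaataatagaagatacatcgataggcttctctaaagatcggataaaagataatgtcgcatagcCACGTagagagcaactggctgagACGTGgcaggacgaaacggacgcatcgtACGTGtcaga
KIN1, chr5:5209417-5209716, plus strand: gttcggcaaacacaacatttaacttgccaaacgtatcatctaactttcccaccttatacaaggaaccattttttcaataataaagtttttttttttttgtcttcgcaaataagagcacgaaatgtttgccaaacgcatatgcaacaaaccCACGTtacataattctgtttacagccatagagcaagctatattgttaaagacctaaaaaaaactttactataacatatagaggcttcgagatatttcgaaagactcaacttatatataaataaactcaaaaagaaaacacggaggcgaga
KIN2, chr5:5211419-5211718, plus strand: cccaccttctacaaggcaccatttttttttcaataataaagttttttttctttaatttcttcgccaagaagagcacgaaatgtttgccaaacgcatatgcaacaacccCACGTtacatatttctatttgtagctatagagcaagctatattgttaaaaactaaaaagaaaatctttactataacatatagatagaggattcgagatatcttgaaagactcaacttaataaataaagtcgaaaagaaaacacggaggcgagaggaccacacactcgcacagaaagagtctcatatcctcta
In this window RD29A held 3 matches to CCGAC and 0 to ACGTG, while RD29B held 1 match to CCGAC and 4 to ACGTG. KIN1 and KIN2 held 0 matches to CCGAC and 1 to ACGTG each. Of 27443 protein-coding genes of the nuclear chromosomes, 13.9% held CCGAC and 25.6% held ACGTG in the same window.

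The coding sequences of KIN1 and KIN2 are close copies and are shown because reads must be told apart by the few bases that differ, which are in capitals.
KIN1 coding exons joined, chr5:5209992-5210473, plus strand: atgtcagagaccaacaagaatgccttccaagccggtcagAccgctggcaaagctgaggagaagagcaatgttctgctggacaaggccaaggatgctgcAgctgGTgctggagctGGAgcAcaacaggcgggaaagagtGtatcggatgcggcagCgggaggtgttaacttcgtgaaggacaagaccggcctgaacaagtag
KIN2 coding exons joined, chr5:5211966-5212441, plus strand: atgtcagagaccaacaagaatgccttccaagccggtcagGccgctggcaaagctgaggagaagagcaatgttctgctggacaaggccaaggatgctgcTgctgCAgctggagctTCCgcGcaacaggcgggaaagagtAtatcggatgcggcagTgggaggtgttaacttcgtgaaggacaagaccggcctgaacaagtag
The pair differed at 10 of 201 coding bases, an identity of 95.02%. The transcripts as a whole were less alike. Their longest shared run was 58 bases, and 1.28% of the 50-base stretches of the KIN1 transcript also occurred in that of KIN2. In the other pairs the coding identity over aligned bases was 83.8% for COR15A and COR15B, 82.3% for COR47 and ERD10 and 80.7% for RD29A and RD29B, and no stretch of 50 bases was shared. No label states the read length, the counting program or what was done with multiply mapped reads, so a small exchange of reads between KIN1 and KIN2 cannot be told from expression.

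Library totals ran from 31611735 to 47467130 counts. RBCS1A, for the Rubisco small subunit and a marker of green leaf, was at 19251 to 24049 CPM in the 8 libraries. HTA9 was at 86.0 to 104 CPM in the wild type and 14.8 to 60.6 CPM in hta9 hta11, and HTA11 at 38.5 to 54.1 CPM and 2.98 to 26.03 CPM. HTA9 fell (edgeR adjusted p = 0.0457) and HTA11 did not pass (adjusted p = 0.0924), although neither overlapped the wild type. Libraries 1 and 3 of hta9 hta11 held more of both than libraries 2 and 4. Seed markers were almost absent, with a summed level of at most 0.480 CPM over 7 genes in any library and AT2S3 and OLEO2 at 0 throughout.

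In hta9 hta11 the transcripts of KIN1 and RD29B rose, and those of the other 8 genes did not pass the test. Both genes that rose are the scarcer members of their tandem pairs, and in neither pair did the abundant neighbour pass. Read counts were scaled to library size and are given as CPM, and the counts were compared with edgeR's quasi-likelihood test, with p-values adjusted over all 20214 genes and a threshold of 0.05. By this rule 2 of the 10 genes were called, both upward, where 3.74% of all tested genes were called, 2.49% upward and 1.25% downward. The 10 genes were chosen with earlier results of these data known, so setting these shares side by side is a description only. The median log2 fold change was -0.02 over the 10 genes and 0.00 over all genes tested, and 4 of the 10 values were above 0.

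KIN1, first described as a cold-induced gene, had 3.26, 2.98, 4.203 and 3.30 CPM in wild-type libraries 1 to 4, against 11.3, 8.72, 10.04 and 9.52 CPM in mutant libraries 1 to 4. The lowest mutant library lay above the highest wild-type library, so the groups did not overlap. Among all tested genes 11.3% had groups that did not overlap, 6.23% with the mutant higher and 5.07% with it lower. The means were 3.44 ± 0.532 and 9.88 ± 1.06 CPM (SD, n = 4), a 2.88-fold rise (log2 fold change 1.52, SE 0.13, edgeR adjusted p = 0.000856). The values rest on 103 to 156 reads per wild-type library and 324 to 533 reads per mutant library. Wild-type KIN1 was 0.493% to 0.834% of the reads of KIN1 and KIN2 together. A small exchange of reads between these genes could alter the size of the rise, and this was not tested. The coefficient of variation of KIN1 was 15.5% in the wild type and 10.7% in hta9 hta11, the latter the lowest of the 10 genes in that genotype.

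KIN2, its neighbour downstream and also known as COR6.6, was the most abundant of the 10. It had 659, 463, 500 and 444 CPM in the wild type, against 557, 357, 457 and 482 CPM in the double mutant. The ranges overlapped over most of their length. The means were 517 ± 97.8 and 463 ± 82.7 CPM (SD, n = 4), with a log2 fold change of -0.16 (SE 0.15, edgeR adjusted p = 0.654). The 95% interval from limma-voom, an alternative test for the same table, ran from 0.710-fold to 1.13-fold for KIN2 and from 2.35-fold to 3.56-fold for KIN1.

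RD29B, which encodes a hydrophilic protein induced by ABA, had 0.482, 0.121, 0.189 and 0.384 CPM in the wild type, against 1.48, 1.39, 1.12 and 2.10 CPM in the double mutant. Every mutant library lay above every wild-type library, although the gene stayed near the lower end of what these libraries can measure. The counts were 17, 5, 7 and 12 reads in the wild type and 70, 56, 36 and 78 reads in hta9 hta11. The means were 0.294 ± 0.168 and 1.52 ± 0.415 CPM (SD, n = 4), a 5.26-fold rise (log2 fold change 2.39, SE 0.37, edgeR adjusted p = 0.00935). Its limma-voom interval was wide, from 3.12-fold to 10.4-fold.

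RD29A, the neighbour of RD29B and the best known cold and drought reporter gene of this plant, had 182, 171, 184 and 110 CPM in the wild type, against 250, 88.6, 113 and 186 CPM in the double mutant. The mutant libraries spanned the whole wild-type range and went beyond it on both sides. The means were 162 ± 34.7 and 159 ± 73.4 CPM (SD, n = 4), with a log2 fold change of -0.02 (SE 0.29, edgeR adjusted p = 0.981). The limma-voom interval from 0.587-fold to 1.46-fold does not reach the 5.26-fold rise of RD29B.

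**Figure D1:**
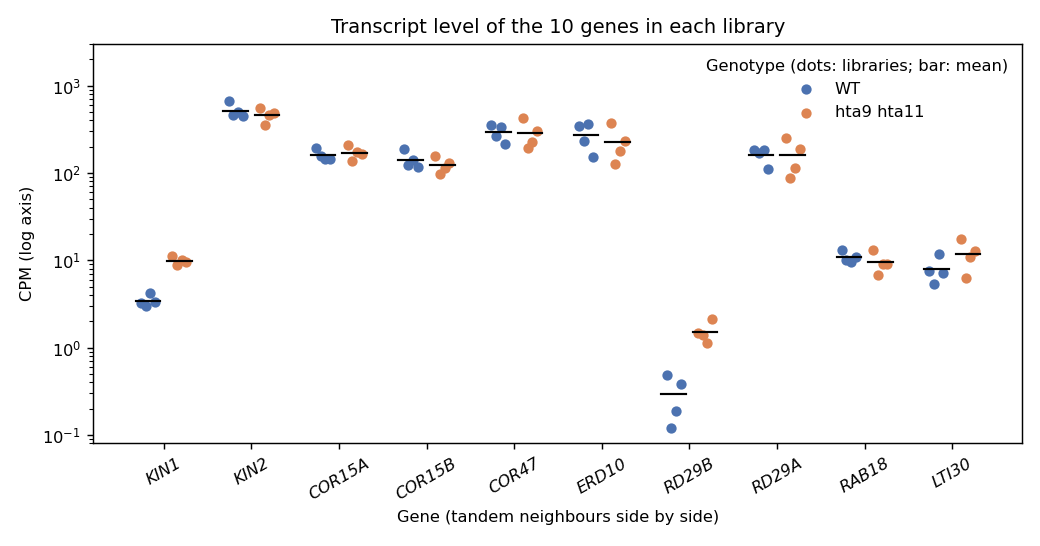
CPM of the 10 genes on a log axis, with a dot for each of the 4 wild-type (blue) and 4 hta9 hta11 (orange) libraries and a bar at the mean. The groups are apart for KIN1 (2.98 to 4.203 against 8.72 to 11.3 CPM) and RD29B (0.121 to 0.482 against 1.12 to 2.10 CPM) and overlap for the other 8 genes.

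The stromal proteins COR15A and COR15B stabilise chloroplast membranes during freezing. COR15A had 194, 155, 143 and 143 CPM in the wild type, against 209, 136, 175 and 163 CPM in the double mutant, with a log2 fold change of 0.10 (SE 0.14, edgeR adjusted p = 0.756). COR15B had 189, 123, 139 and 117 CPM in the wild type, against 157, 97.4, 113 and 129 CPM in the double mutant, with a log2 fold change of -0.20 (SE 0.17, edgeR adjusted p = 0.620). Neither group stood apart from the other in either gene. COR15B overlaps AT2G42520 on the opposite strand, so without a stated strand setting some of its reads could belong to that gene, which was at 44.2 and 43.2 CPM (wild type, then double mutant).

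The dehydrins are disordered proteins that bind membranes and other proteins in drying or freezing cells. COR47 had 356, 262, 333 and 214 CPM in the wild type, against 425, 191, 224 and 304 CPM in the double mutant (log2 fold change -0.03, SE 0.24, edgeR adjusted p = 0.968). ERD10 had 345, 231, 363 and 151 CPM in the wild type, against 370, 128, 177 and 233 CPM in the double mutant (log2 fold change -0.26, SE 0.33, edgeR adjusted p = 0.743). In both genes libraries of the same genotype differed more than the genotype means did.

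LTI30, a dehydrin induced by low temperature, had 7.52, 5.35, 11.8 and 7.14 CPM in the wild type, against 17.5, 6.29, 11.03 and 12.9 CPM in the double mutant. Its log2 fold change of 0.59 (SE 0.30, edgeR adjusted p = 0.346) was the highest among the 8 genes that did not pass, and the groups overlapped. RAB18, a dehydrin used as a marker of the ABA response, had 13.3, 10.1, 9.56 and 11.02 CPM in the wild type, against 13.02, 6.86, 9.05 and 9.06 CPM in the double mutant (log2 fold change -0.20, SE 0.18, edgeR adjusted p = 0.618). RAB18 and RD29B are both ABA markers, and RD29B passed where RAB18 did not, a difference between genes that was not itself tested. The limma-voom interval of RAB18 ran from 0.649-fold to 1.14-fold. RAB18 overlaps PLP3b on the opposite strand, which was at 21.4 and 21.7 CPM (wild type, then double mutant).

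Within each pair the ratio of the neighbours' reads was compared, since a ratio within a library does not depend on how libraries are scaled. The 4 ratios were tested with a two-sided exact permutation test over the 8 libraries, for which 70 splits exist and the smallest p is 0.0286. In a second test, chosen after the data had been examined, limma was fitted to the ratios of all 14859 pairs of neighbouring protein-coding genes that were both tested. In that fit 5.35% of the pairs were called, and in 12.8% the groups did not overlap.

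KIN1 made up 0.493%, 0.638%, 0.834% and 0.737% of the pair's reads in the wild type and 1.98%, 2.39%, 2.15% and 1.94% in hta9 hta11. The log2 ratio of KIN1 to KIN2 was -7.22 ± 0.328 in the wild type and -5.54 ± 0.140 in hta9 hta11 (SD, n = 4), a difference of 1.68. The groups did not overlap (exact p = 0.0286, adjusted over the 4 pairs 0.0381), and the ratio also passed in limma (SE 0.17, adjusted p = 0.00069).

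RD29B made up 0.265%, 0.0706%, 0.103% and 0.347% of its pair's reads in the wild type and 0.587%, 1.55%, 0.981% and 1.11% in hta9 hta11. The log2 ratio of RD29B to RD29A was -9.19 ± 1.05 and -6.62 ± 0.587 (SD, n = 4), a difference of 2.58 with no overlap (exact p = 0.0286, adjusted over the 4 pairs 0.0381; limma SE 0.49, adjusted p = 0.0140). Without hta9 hta11 library 2 or 4 the exact p was 0.0571. The groups stayed apart there, and with a library left out fewer splits exist, so p moves in larger steps.

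In the other pairs the neighbours were present in near equal numbers and the ratio differences were smaller. COR15A made up 50.6% to 55.7% of its pair's reads in the wild type and 55.8% to 60.9% in hta9 hta11. The log2 ratio of COR15A to COR15B differed by 0.29 with no overlap (exact p = 0.0286, adjusted over the 4 pairs 0.0381), but it did not pass in limma (SE 0.11, adjusted p = 0.147). The exact p rose to 0.0571 on leaving out wild-type library 1, wild-type library 3 or mutant library 1, 2 or 4, and to 0.114 on leaving out mutant library 3. Here too the groups stayed apart, and p moves in larger steps when fewer splits exist. COR47 made up 47.9% to 58.6% of its pair's reads in the wild type and 53.4% to 59.9% in hta9 hta11, which overlapped (difference of the log2 ratio 0.22, exact p = 0.200, limma adjusted p = 0.399).

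**Figure D2:**
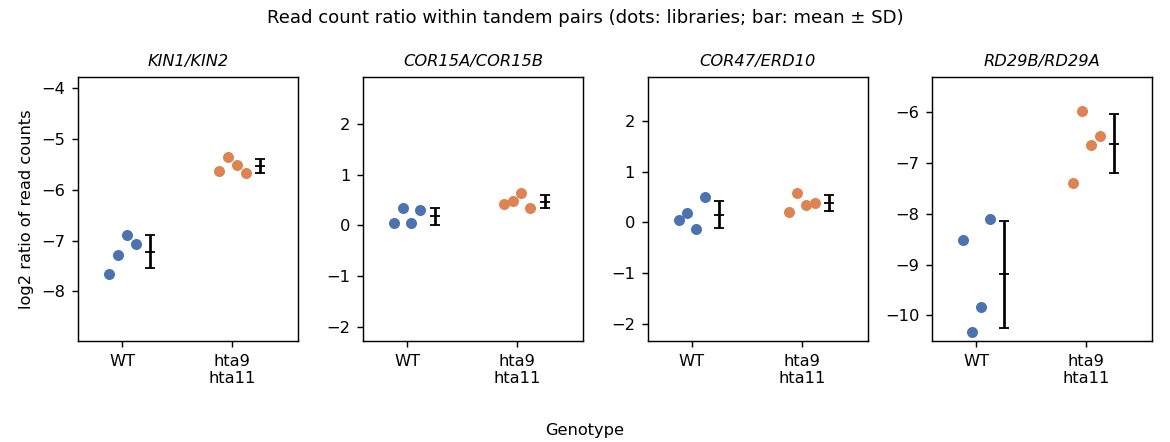
Log2 ratio of the read counts of tandem neighbours in each library, with the mean ± SD beside the dots (n = 4), on axes of equal height. The KIN1/KIN2 and RD29B/RD29A ratios differ by 1.68 and 2.58 between the genotypes, against 0.29 and 0.22 for COR15A/COR15B and COR47/ERD10.

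Levels of different genes were set side by side as CPM per kilobase of annotated exon. In the wild type KIN2 stood first at 689 ± 130, followed by ERD10 at 168 ± 61.4, COR47 at 126 ± 28.2, COR15A at 100.2 ± 15.3 and COR15B at 89.7 ± 20.7 CPM per kilobase (SD, n = 4). The ranges of ERD10, COR47, COR15A and COR15B overlapped from each gene to the next, so their order is not resolved. RD29A came sixth at 60.7 ± 13.01 CPM per kilobase, then RAB18 at 10.1 ± 1.501 and LTI30 at 8.21 ± 2.84, which overlapped each other. KIN1 was at 4.14 ± 0.642 and RD29B at 0.135 ± 0.0774 CPM per kilobase, each below the range of the gene before it. In hta9 hta11 KIN1 was at 11.9 ± 1.28 and RD29B at 0.700 ± 0.191 CPM per kilobase. There LTI30 was at 12.3 ± 4.78 and RAB18 at 8.72 ± 2.36 CPM per kilobase, and the range of KIN1 overlapped both, so the order of these 3 genes is not resolved. RD29B stayed last.

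Libraries of 1 genotype differed together across most of these genes. In hta9 hta11, library 1 was highest in 9 of the 10 genes and library 2 lowest in 9 of the 10, the exception both times being RD29B. In the wild type, library 1 was highest in 6 genes and library 3 in 4. For the 8 genes that were not called, the highest library exceeded the lowest by 1.36-fold to 2.40-fold in the wild type and by 1.54-fold to 2.89-fold in hta9 hta11. Their fold changes between genotypes were smaller than this spread. All 10 genes together made up 1202 to 1950 CPM in the wild type and 1021 to 2011 CPM in hta9 hta11.

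**Figure D3:**
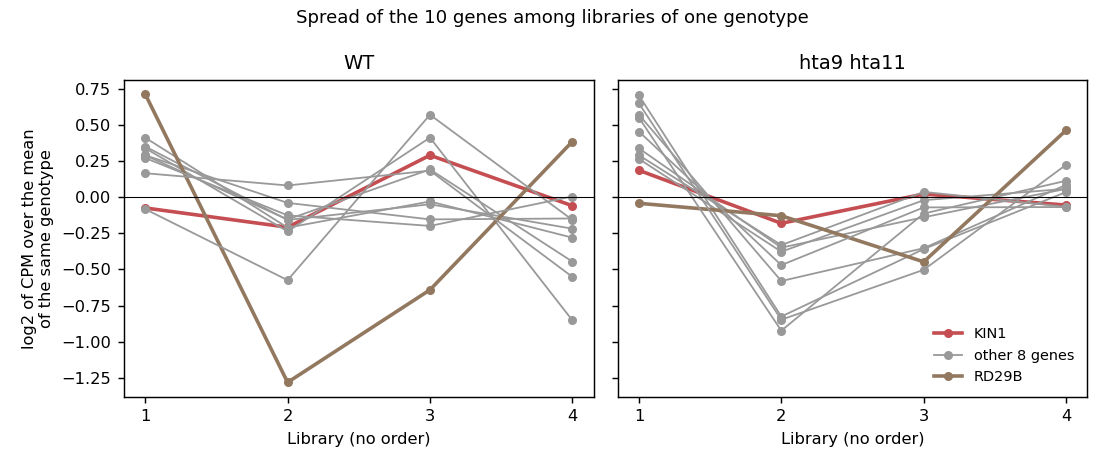
Log2 of each gene's CPM over its mean in the same genotype, by library, where lines join the values of a gene and the library numbers have no order. In hta9 hta11 library 1 is highest and library 2 lowest for 9 of the 10 genes, while KIN1 varies by 1.29-fold.

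No other gene of the wider pathway passed in edgeR. Of 72 other genes in 6 lists that cover the cold and ABA pathways, 67 were tested and 0 passed in edgeR or in limma-voom, which called 3.59% of all tested genes. In edgeR 11 had an unadjusted p under 0.05, a share to be read beside the 18% of all tested genes below that value. DESeq2 called 4 of the 67, where it called 7.44% of all tested genes, so that count does not set the lists apart. The median log2 fold change of the 67 genes was -0.02. Among 21 tested genes that cold, drought or ABA induce, 0 passed in edgeR, with ERD14, a dehydrin, at 382 ± 96.7 and 345 ± 94.1 CPM and RCI2A, a small membrane protein, at 283 ± 50.8 and 256 ± 34.97 CPM (wild type, then double mutant; SD, n = 4). In this list DESeq2 called COR413-PM1, lower in hta9 hta11, at 241 and 186 CPM with no overlap between the groups. Its edgeR log2 fold change was -0.37 (edgeR adjusted p = 0.102, DESeq2 adjusted p = 0.0311), and it was named after its values were seen. Among 12 tested regulators of the cold response, 0 passed, with CAMTA3, a calmodulin-binding activator, at 56.9 and 54.7 CPM and ICE1, an activator of CBF genes, at 51.5 and 47.4 CPM. The cold factors CBF1, CBF2 and CBF3 were near the detection limit, at 0.533 and 0.570, 0.397 and 0.488, and 0.209 and 0.231 CPM in the respective genotypes, and were named after their values were seen.

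The ABA route was likewise without a call in edgeR. DESeq2 called ABA1 and PP2CA, lower in hta9 hta11, and PYL6, higher, where it called 7.44% of all tested genes. Of 10 tested genes of ABA synthesis and breakdown, 0 passed, with ABA1, the zeaxanthin epoxidase, at 72.3 and 60.8 CPM (log2 fold change -0.25, adjusted p = 0.102) and AAO3, an aldehyde oxidase that makes ABA, at 17.1 and 16.5 CPM. Of 9 ABA receptors tested, 0 passed, with PYL8 at 92.7 and 93.2 CPM and PYL4 at 58.9 and 71.5 CPM. PYL6 was at 1.54 and 2.99 CPM (log2 fold change 0.96, edgeR adjusted p = 0.112, DESeq2 adjusted p = 0.0297). Of 10 PP2C phosphatases and SnRK2 kinases tested, 0 passed, with the kinase SNRK2.2 at 128 and 121 CPM and the phosphatase ABI1 at 63.5 and 55.6 CPM. All 12 genes of this list summed to 381 to 409 CPM in the wild type and 339 to 372 CPM in hta9 hta11. These ranges did not overlap, while those of the other ABA lists did. This sum was named after its values were seen and was not tested. The phosphatase PP2CA was at 57.3 and 43.5 CPM (log2 fold change -0.40, edgeR adjusted p = 0.0564, DESeq2 adjusted p = 0.00721). Of 5 tested bZIP factors that act in ABA signalling, 0 passed, with ABF2 at 22.6 and 19.8 CPM and ABF1 at 20.2 and 22.3 CPM. ABF3 was at 18.1 and 13.6 CPM and ABF4 at 19.6 and 16.2 CPM, with unadjusted p of 0.0108 and 0.00747 and edgeR adjusted p of 0.128 and 0.105. ABF3, ABF4, PYL6 and PP2CA were named after their values were seen.

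**Figure D4:**
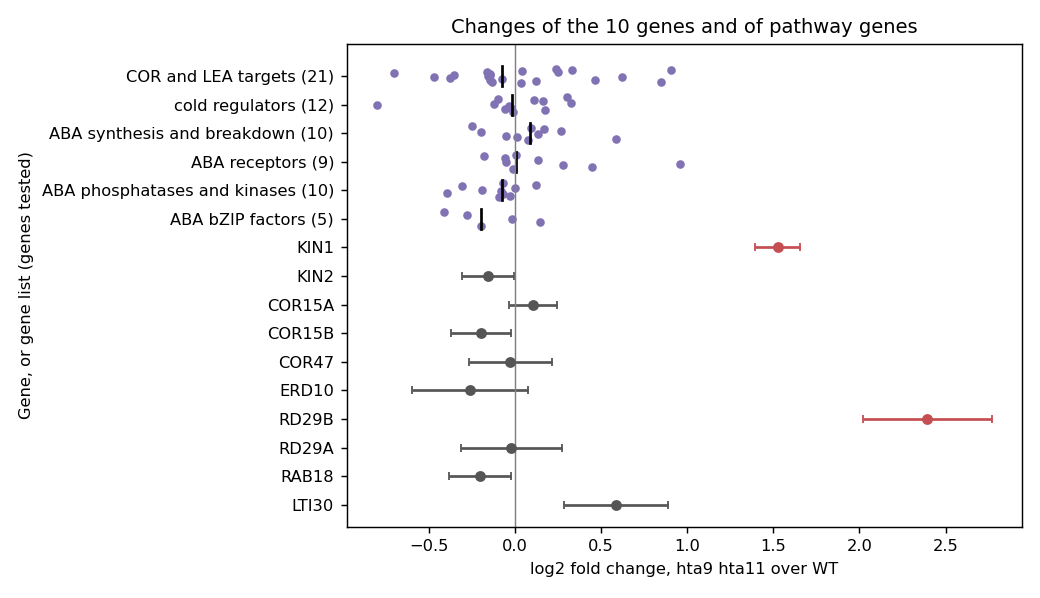
Log2 fold change of hta9 hta11 over wild type for the 10 genes, with the SE as bars and the 2 genes that passed in red, and for the tested members of 6 pathway lists as dots with a line at each median. KIN1 (1.52) and RD29B (2.39) lie to the right of all 67 pathway genes, which span -0.80 to 0.96.

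Other features of the libraries moved with the genotype beside KIN1 and RD29B. Of 5 floral markers 4 rose, where 2.49% of all tested genes rose. This list and the other lists were chosen with earlier results of these data known. The summed level of the 5 floral markers was 2.61 to 3.09 CPM in the wild type, against 8.89, 14.8, 7.13 and 13.2 CPM in mutant libraries 1 to 4. AP1, AP3, PI and SEP3 rose by 2.04, 2.64, 2.18 and 2.92 on the log2 scale, and AG, which marks stamens and carpels and was named as the 1 marker that did not pass, was at -0.49 (edgeR adjusted p = 0.301). In a bulk rosette, more cells of a type and more RNA per cell cannot be told apart. Of 8 genes that respond to touch and wounding within minutes, 2 fell and none rose. Over all tested genes 1.25% fell and 2.49% rose. TCH4, a cell wall enzyme, fell from 72.1 ± 22.5 to 29.3 ± 12.2 CPM and WRKY33, a defence regulator, from 38.4 ± 4.46 to 28.4 ± 2.09 CPM (SD, n = 4; edgeR adjusted p = 0.0379 and 0.0372). The list's summed level was 438 to 662 CPM in the wild type and 303 to 475 CPM in hta9 hta11. TCH3, the most abundant gene of this list at 295 and 234 CPM, did not pass (edgeR adjusted p = 0.336). ERF104 alone in the list had a positive log2 fold change, 0.66 (9.20 and 14.5 CPM, edgeR adjusted p = 0.229). TCH3 and ERF104 were named after their values were seen. Of 6 guard cell markers, 0 passed by any of the 3 tools (edgeR, limma-voom, DESeq2) and 0 were below 0.05 before adjustment, with KAT1 at 21.4 and 18.3 CPM and FAMA at 19.7 and 21.8 CPM and a summed level of 58.5 to 70.6 and 58.2 to 71.6 CPM. The part of floral tissue or of handling in the KIN1 and RD29B values was not tested. KIN1 and RD29B also rose without hta9 hta11 libraries 1 and 3, the libraries with more HTA9 and HTA11 reads (log2 fold changes 1.41 and 2.59, edgeR adjusted p = 0.00261 and 0.0157), which leaves 2 mutant libraries.

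The genes that flank the pairs were looked at in the same fit. AT5G15950, an S-adenosylmethionine decarboxylase gene 1680 bases before KIN1, fell from 27.02 ± 1.51 to 21.2 ± 1.74 CPM (SD, n = 4; log2 fold change -0.35, edgeR adjusted p = 0.0435). AT5G15980, on the far side of KIN2, was at 17.4 and 16.6 CPM. SHOC1, a meiosis gene that lies 466 bases from RD29B on the opposite strand, was at 0.609 ± 0.173 and 1.06 ± 0.259 CPM, with a log2 fold change of 0.79 that did not pass (SE 0.26, edgeR adjusted p = 0.144). CYP96A4, beyond RD29A, was at 37.9 and 31.6 CPM (adjusted p = 0.468). Of 14 flanking or overlapping genes around the 4 pairs, RAB18 and LTI30, 12 were tested, 1 fell and none rose. Over all tested genes 1.25% fell and 2.49% rose, and 1 call among 12 genes is too few to set beside these shares. XERO1, a dehydrin gene next to LTI30, had at most 0.108 CPM in any library, and AT2G42550 had no count.

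The 10 genes share more than the 300-base windows show, because the annotated gene start lies 182 to 1209 bases before the start codon, the longest distance being that of COR47. In the 300-base windows 5 of the 10 held CCGAC, 5 held ACGTG and 2 held both, against 13.9%, 25.6% and 4.34% of protein-coding genes. COR47 and ERD10 held neither there. Nearly all of the COR15B window, with its match to CCGAC, lay within the COR15A gene, which is 7 bases away. In the 1000 bases before the start codon all 10 held at least 1 CCGAC and at least 1 ACGTG on either strand, against 39.4% and 54.2% of 27443 protein-coding genes and 22.3% for both together. For COR47 this window lay wholly after the annotated gene start. The genes are standard readouts of cold and ABA, so these shares are a description and not a test. The palindrome CACGTG, called the G-box, holds ACGTG on both strands and so counts as 2 matches to it. RD29A held 4 matches to CCGAC and 1 to ACGTG, while RD29B held 3 and 6. All windows were taken without regard to neighbouring genes. The RD29B matches at -881 and -869 (CCGAC) and at -872 and -703 (ACGTG) lay within the SHOC1 gene. KIN1 held 2 matches to CCGAC and 5 to ACGTG, and KIN2 held 1 and 7. The 500 bases before the start codons of KIN1 and KIN2 could be aligned with 431 of 500 bases identical, or 86.2%. A match shows only that the letters are present and says nothing of binding in these plants.

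**Figure D5:**
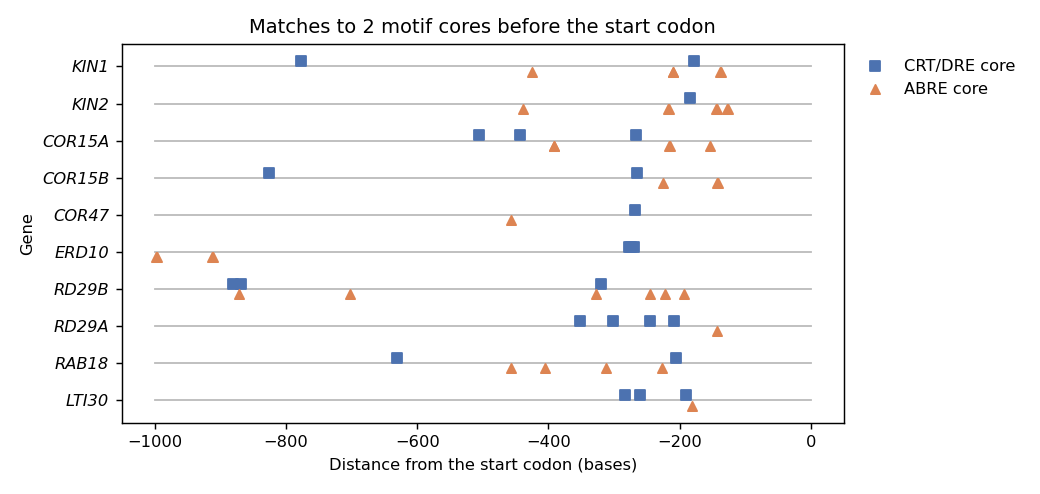
Matches to CCGAC (CRT/DRE core, squares) and ACGTG (ABRE core, triangles) on either strand in the 1000 bases before the start codon of each gene, by distance in bases. All 10 genes hold both, and RD29A holds 4 matches to CCGAC and 1 to ACGTG where RD29B holds 3 and 6. The RD29B matches at -881, -872, -869 and -703 lie within SHOC1, and the COR15B match at -825 lies within COR15A.

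The genes whose levels ran most like those of the 10 over the 8 libraries were AT5G03490, a UDP-glycosyltransferase gene, AT1G33490, an E3 ubiquitin ligase gene, and AT3G17130, a gene of the invertase and pectin methylesterase inhibitor family. Their Pearson r with the mean standardised log2 CPM of the 10 genes was 0.97, 0.97 and 0.97 over 8 libraries, chosen as the highest among 20204 genes. AT1G44160, AT3G17780 and AT1G16740 followed with 0.96, 0.96 and 0.95. None of the 6 was called, and with so many genes compared over so few libraries such values are a description only.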

How the data were processed

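The deposited table holds whole-number counts per gene made by the authors, 36796 genes by 8 libraries, matched to samples by library name; of its columns of values, 0 were left unused. Libraries were made with a directional poly(A) kit, per the labels' protocols. The submitters' processing notes name the build TAIR10 with HISAT2 2.2.1, SAMtools 1.17, fastp 0.23.2, limma and DESeq2; no source used here gives the counting program or its strand setting. Gene names, positions, exon lengths and sequences came from RefSeq's TAIR10.1, matched by locus identifier, and positions are on that build. Each library was a pool of plants that the labels call a biological replicate.

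Genes were filtered with filterByExpr, scaled by TMM and tested with edgeR 4.0.16 (R 4.3.3), with genotype as the term and Benjamini-Hochberg adjustment. Each SE was the size of the log2 fold change divided by the root of its F. Within a genotype, pairs of libraries differed beyond sampling noise (chi-square per degree of freedom 12.5 to 45.3). Tandem ratios used counts plus 0.5. Alternatives were RLE and upper-quartile scaling, 2 other count filters, a replicate block, DESeq2 1.42.0, limma-voom (limma 3.58.1), summed pairs, an adjusted p under 0.01 and each library left out. In simulated data for the comparison of hta9 hta11 with WT (20095 genes tested, 200 changed), the test found 80% of the 100 genes given a log2 change of 1 and 99% of the 100 given a change of 2, with 13 false calls.

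The 10 genes and the lists were chosen with earlier results of these data known. Named were the 10, flanking genes, of each list up to 4 members that passed or, with none, the 2 most abundant by mean CPM, and the 6 genes most alike in pattern.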

Additional observations from a re-analysis of the deposited data

How the results depend on the processing

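The calls of KIN1 and RD29B held in all 16 alternative fits of single genes, with log2 fold changes of 1.41 to 1.64 and 2.11 to 2.76 and highest adjusted p-values of 0.00796 and 0.0360, and the other 8 genes passed in none. With each tandem pair summed into 1 feature, 0 members were called, since KIN2 and RD29A hold nearly all reads of their pairs. The number of genes called moved from 757 to 1504 in DESeq2, to 152 at an adjusted p under 0.01 and with single libraries left out to 208 (without hta9 hta11 library 4) to 1246 (without library 1); the cause was not tested. Near-zero log2 fold changes changed sign: RD29A to 0.00581 with upper-quartile scaling and to -0.32 to 0.18 with single libraries left out, COR47 to -0.28 to 0.12 and COR15A to -0.00800 to 0.216 likewise, and COR15A to -0.0898 without hta9 hta11 libraries 1 and 3, the last setting chosen after the data were examined. The values do not settle whether same-numbered libraries were paired (correlations of deviations from the genotype means -0.26 to 0.38, and 2 of 4 correlated best with their own number). With the replicate block 847 genes were called, and the log2 ratio differences stayed at 1.68, 0.29 and 2.58 for KIN1/KIN2, COR15A/COR15B and RD29B/RD29A with a sign-flip p of 0.125, the smallest that 4 pairs allow. With single libraries left out, these ratio differences ran from 1.54 to 1.80, 0.23 to 0.34 and 2.198 to 2.94, and that of COR47/ERD10 from 0.13 to 0.34. The COR15A/COR15B difference of 0.29 did not pass in limma over all neighbouring genes. RD29B rests on 5 to 78 reads a library, which limits its precision.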
